A study of Arabidopsis thaliana with 12 samples.

Results

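DNA methylation after heat was compared with control in shoot stem cells of the poliv mutant of Arabidopsis thaliana, as the heat column minus the control column of each gene or transposable element (TE). Of the 12 samples in 6 groups, 4 belong to this comparison, 2 of poliv after heat and 2 of poliv control, and wild type (wt) and ddm1 serve only for comparison. The poliv plants carry nrpda-3, a mutation in the gene for the largest subunit of RNA polymerase IV, and ddm1 plants carry ddm1-10, a mutation in the gene for the chromatin remodeller DDM1. All groups, controls included, are Col-0 with the pCLV3::H2BmCherry reporter, which marks nuclei only where the CLV3 promoter is active, and those nuclei were sorted by fluorescence from inflorescence apices. Plants 6 days old were kept at 37 °C for 1 day, recovered for 21 days after the heat ended on day 7, and were sampled on day 28 with untreated plants of the same age. Each genotype is 1 mutant line, bisulfite reads give no expression by which the stem cell identity could be checked, and the reporter brings a further copy of CLV3 promoter sequence.

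RNA polymerase IV starts RNA-directed DNA methylation. Its transcripts are turned into small interfering RNAs that guide the methyltransferase DRM2 to TEs, mainly in the CHH context, where H stands for A, C or T. Methylation in CG is copied at each division by MET1, and methylation in CHG and much of the CHH methylation within long TEs is kept by CMT3 and CMT2, which do not need polymerase IV.

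A level is the share of cytosine calls at a locus that were methylated, and the deposited table gives 1 set of calls per group for both libraries, so no value has a replicate error. The poliv control column held 47449953 CG calls and the heat column 40440617, with 218394066 and 186041063 in CHH. Chloroplast DNA, which is unmethylated and so shows unconverted cytosines, had a CG level of 0.348% in the control column and 0.616% in the heat column. Its CHG level was 0.355% in the control column and 0.635% in the heat column, and its CHH level 0.404% and 0.704%. Every difference below had this chloroplast shift subtracted and is given in percentage points. A locus was called where Fisher's exact test on the matched calls gave an adjusted p at or below 0.05 and the difference was at least 10 points in CG or CHG, or 5 points in CHH, among loci with at least 50 calls on both sides. The test compares the pooled libraries and not the plants, and all intervals are 95% intervals that cover counting error only.

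Few loci differed by that much. In CG 57 loci were called higher and 63 lower of 40386, which is 0.297% of those tested, in CHG 6 were higher and 6 lower of 39508, or 0.0304%, and in CHH 265 were higher and 206 lower of 55671, or 0.846%. Without subtraction and matching 65 gains and 66 losses were called in CG, 11 gains against 7 losses in CHG, and in CHH 413 gains against 251 losses. The CHH calls were nearly all TEs, with 232 higher and 184 lower of 22259 TEs against 16 higher and 14 lower of 27106 protein-coding genes. In CG the calls were spread over 27 TEs higher and 31 lower of 8685, 19 protein-coding genes higher and 18 lower of 26775, and 11 other loci higher and 14 lower of 4926. The called TEs had a median of 195 calls for the 416 in CHH and 124 calls for the 58 in CG, where all tested TEs had 212 and 172, and 176 of the 416 had a level under 1% in one of the columns.

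**Figure D1:**
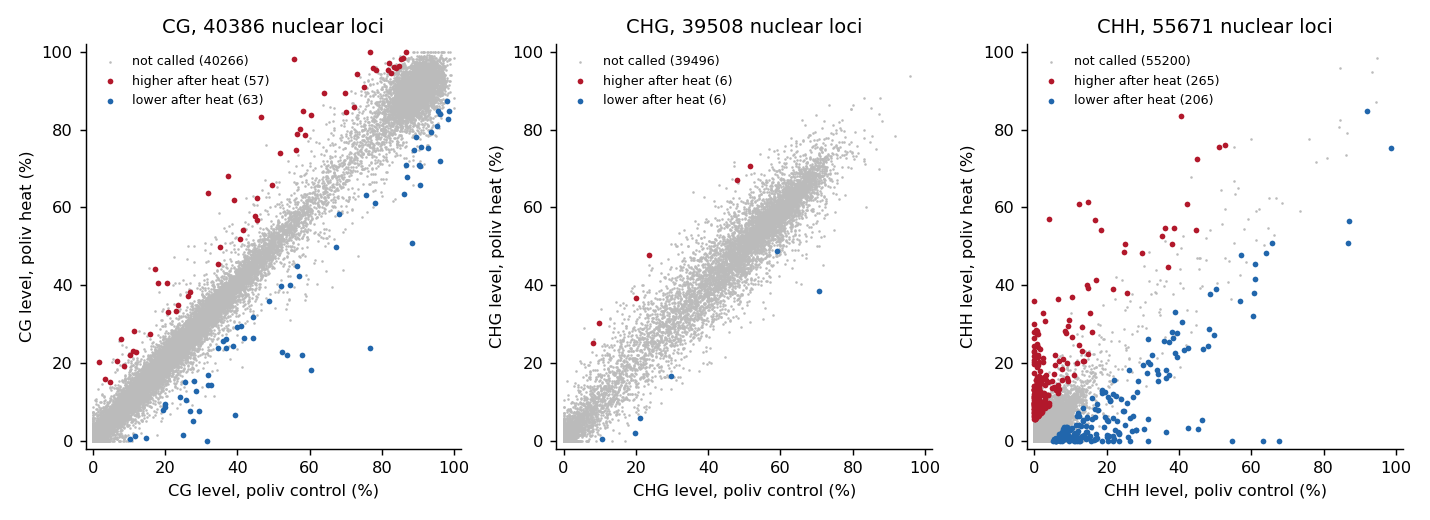
Methylation level of every nuclear locus with at least 50 calls in both columns, control on the x axis and heat on the y axis, both in percent and without subtraction, for CG, CHG and CHH in poliv. Most of the 40386 CG loci lie along the diagonal, the 6 higher and 6 lower CHG calls stand apart from it singly, and many of the 471 CHH calls lie beside the axes, where one of the columns is close to 0.

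The largest stretch of neighbouring loci with 1 direction outside organelle-like DNA was the copy of the ribosomal DNA (rDNA) on chromosome 3, chr3:14195447-14204208 in the RefSeq TAIR10.1 assembly, 8762 bases that hold the genes for 18S and 5.8S ribosomal RNA. All 8 loci annotated there were lower in CG after heat, in an unbroken run. Pooled over them, the CG level was 25.9% of 24589 calls in control and 16.4% of 25256 calls in heat. In wt the same loci read 30.4% in control and 31.8% in heat, and in ddm1 0.729% and 1.21%. A match of 99.3% over 8439 bases lies at the start of chromosome 2, chr2:1480-9910, and rDNA is repeated many times in the genome, so reads of other copies cannot be told apart from these where the sequences are identical.

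Both loci of this copy whose sequence is shown mark the range of the loss, MIR5642a with the largest difference and the 5.8S gene with the smallest. Capitals mark CG sites, and the letters come from RefSeq TAIR10.1, plus strand. The 5.8S ribosomal RNA gene (AT3G41979, chr3:14199753-14199916) is given whole, with 15 CG sites in 164 bases, and MIR5642a (AT3G06345), a microRNA precursor gene, by its bases chr3:14196774-14197073, with 19 CG sites in 300 bases.
5.8S rRNA: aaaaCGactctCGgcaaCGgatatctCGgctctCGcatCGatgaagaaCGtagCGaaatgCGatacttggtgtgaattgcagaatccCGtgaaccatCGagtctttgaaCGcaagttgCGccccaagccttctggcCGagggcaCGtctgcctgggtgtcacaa
MIR5642a: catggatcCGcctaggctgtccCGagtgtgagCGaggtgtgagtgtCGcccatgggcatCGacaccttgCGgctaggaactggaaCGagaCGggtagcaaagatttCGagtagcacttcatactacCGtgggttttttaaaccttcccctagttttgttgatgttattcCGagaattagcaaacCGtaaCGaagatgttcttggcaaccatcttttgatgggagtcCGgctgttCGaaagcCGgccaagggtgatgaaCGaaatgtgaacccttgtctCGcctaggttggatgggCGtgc

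MIR5642a had a CG level of 52.3% (46.9 to 57.7) in poliv control, from 168 of 321 calls, and 22.9% (19.0 to 27.2) in poliv heat, from 91 of 398 calls. The intervals do not overlap, and the difference was -29.74 points (-36.4 to -22.7, adjusted p = 1.16e-12 by Fisher's exact test). In wt it was 57.6% in control and 67.6% in heat, and the poliv difference lay 39.4 points below that of wt (adjusted p = 2.46e-10, binomial Wald test). The 5.8S gene read 10.3% in poliv control (31 of 300 calls) and 5.54% in poliv heat (26 of 469 calls), which did not pass the test (Fisher's exact adjusted p = 0.237). In wt the 5.8S gene read 19.6% in control and 36.1% in heat.

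Of the remaining loci, AT3G41762, annotated as an uncharacterized protein at the start of the copy, went from 25.6% of 5360 calls to 15.1% of 5421 calls (-10.83 points, -12.3 to -9.32, adjusted p = 5.69e-40 by Fisher's exact test). The 18S ribosomal RNA gene (AT3G41768) went from 41.0% of 918 calls to 29.7% of 853 calls (-11.57 points, Fisher's exact adjusted p = 0.000281). The noncoding locus AT3G06325 went from 32.7% to 14.4%. These 3 and MIR5642a make up the 4 called loci of the copy, and the other 4 were lower by 5.06 to 8.78 points, under the size that a call needs. The poliv difference passed the test against that of wt at 7 of the 8 loci, the exception being the 18S gene (adjusted p = 0.0976, binomial Wald test). The copy was picked out by its poliv difference, which also enters that test. Several of these loci overlap and share calls, and with overlapping genes left out the run still held 4 loci.

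**Figure D2:**
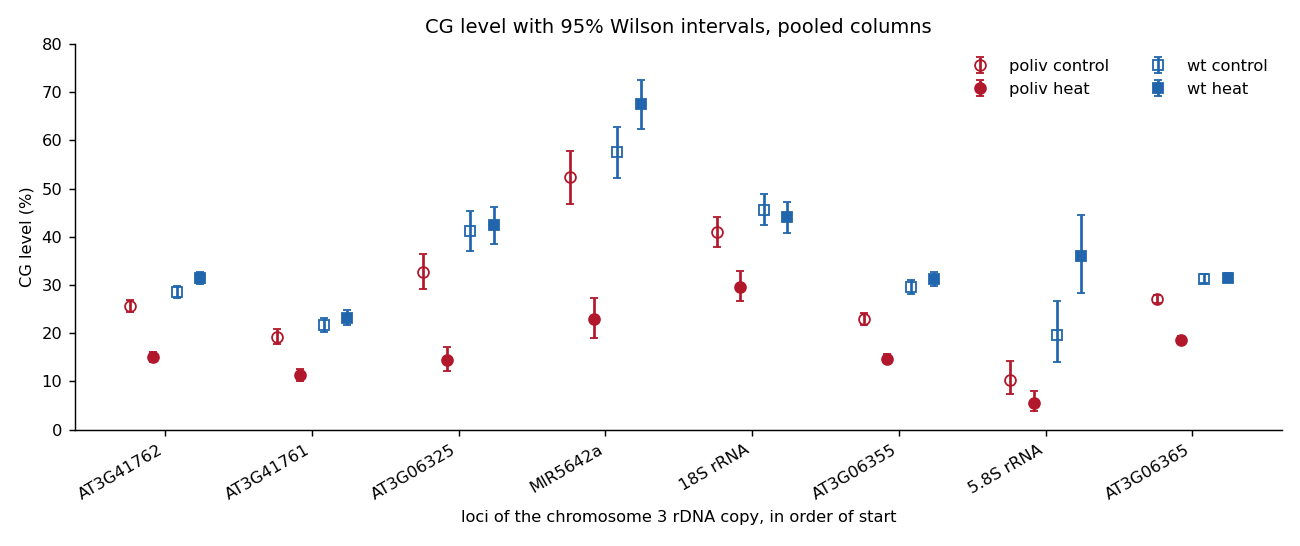
CG level in percent of the 8 loci of the chromosome 3 rDNA copy, in order along the chromosome, with 95% Wilson intervals from the calls of each pooled column. The poliv heat points (filled circles) are the lowest of the 4 at every locus, from 5.54% at the 5.8S gene to 29.7% at the 18S gene, whereas wt control and wt heat (squares) stay close together at most loci.

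In CHG all 8 loci of the copy were also lower, with a pooled level of 10.11% in control and 7.28% in heat, and none reached the size threshold. AT3G06365, the longest of them, went from 12.8% to 9.55% in CHG (adjusted p = 2.66e-06, Fisher's exact test). The pooled CHH level there was 1.27% and 1.29% before subtraction, and 7 of 8 loci were lower after it. At the chromosome 2 match, 6 of 8 measured loci were lower in CG and 2 were called. MIR5642b, which is identical to MIR5642a at 98.4% of 374 aligned bases with 5 differing, went from 57.0% of 302 calls to 42.4% of 361 calls (-14.84 points, Fisher's exact adjusted p = 0.0222). AT2G03875 went from 44.2% of 706 calls to 31.8% of 978 calls (-12.66 points, Fisher's exact adjusted p = 0.000113). The pooled CG level of the chromosome 2 match fell less, from 36.4% to 32.1%.

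A longer block of lower CG methylation lay in chr2:3239039-3509757, 270719 bases near the centromere of chromosome 2 that resemble the mitochondrial genome, the longest matching segment being 98.85% identical to it. Here 76 of 186 loci could be measured in CG, 66 were lower and 8 were called, all of them lower. The pooled level was 15.0% of 88252 calls in control and 9.42% of 106378 calls in heat. The fall was not particular to poliv, since in wt 64 of 73 measured loci were lower and the pooled level went from 17.41% to 11.1%. The mitochondrial genome itself read 5.79% in CG in poliv control, from 164725 calls, and 3.24% in poliv heat, from 206904 calls, so the level fell where the number of calls rose, in both places. The part of unmethylated mitochondrial reads placed on chromosome 2 was not tested.

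**Figure D3:**
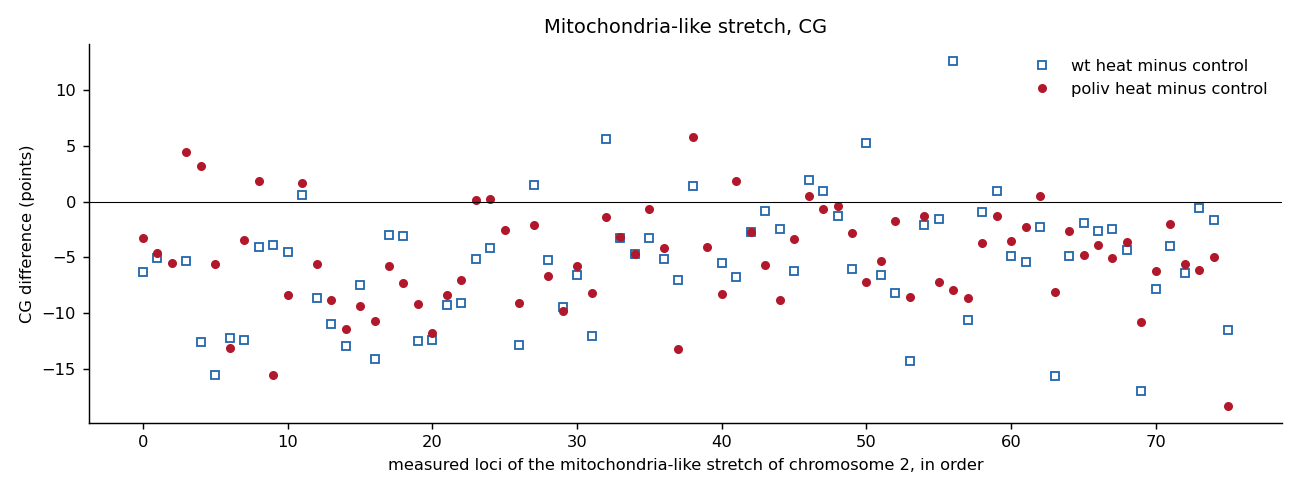
CG difference, heat minus control in percentage points after the chloroplast level was subtracted, of the 76 measured loci of the mitochondria-like stretch of chromosome 2, in order along the chromosome, for poliv (filled circles) and wt (open squares). In poliv 66 of 76 points and in wt 64 of 73 lie below 0, down to -18.31 in poliv.

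Within this stretch AT2G07674, an uncharacterized protein gene, was called in CG and CHG. Its CG level went from 41.9% of 485 calls to 26.5% of 490 calls (-15.59 points, Fisher's exact adjusted p = 0.000201) and its CHG level from 29.9% to 16.6% (-13.50 points, adjusted p = 0.00101). In wt it read 32.6% and 29.0% in CG, and the poliv difference did not pass the test against wt in either context. Next to it stood the longest run of all, 11 consecutive loci from AT2G05165 to AT2G05205 that were lower in CG by 5.61 to 11.77 points. One of these is ABCI4, annotated as a cytochrome c assembly protein, which went from 16.9% of 988 calls to 7.80% of 1282 calls. The opening of the AT2G07674 coding part, chr2:3268932-3269231 on the plus strand, is shown for its 16 CG sites in 300 bases, in capitals.
AT2G07674: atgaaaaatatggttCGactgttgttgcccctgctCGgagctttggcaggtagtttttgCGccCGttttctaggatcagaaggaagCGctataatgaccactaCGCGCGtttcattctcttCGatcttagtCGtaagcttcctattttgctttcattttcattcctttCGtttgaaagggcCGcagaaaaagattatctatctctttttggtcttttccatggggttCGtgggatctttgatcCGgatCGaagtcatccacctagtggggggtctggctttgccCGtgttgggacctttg

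Among protein-coding genes the largest gain was at AT5G26970, annotated as an uncharacterized protein. Its CG level was 46.5% (159 of 342 calls) in control and 83.3% (184 of 221 calls) in heat, which is 36.5 points higher (28.9 to 43.3, adjusted p = 2.18e-15 by Fisher's exact test). Its CHG level went from 9.86% to 30.2% (20.06 points higher, Fisher's exact adjusted p = 2.66e-06), and its CHH level from 0.515% to 2.23%, which did not pass (adjusted p = 0.435). In wt the gene was densely methylated in both columns, with 90.13% and 92.5% in CG and 64.7% and 55.0% in CHG. The poliv heat column thus lay near wt in CG and between poliv control and wt in CHG. The start of its coding part, chr5:9487087-9487386 on the minus strand, holds 12 CG sites, in capitals.
AT5G26970: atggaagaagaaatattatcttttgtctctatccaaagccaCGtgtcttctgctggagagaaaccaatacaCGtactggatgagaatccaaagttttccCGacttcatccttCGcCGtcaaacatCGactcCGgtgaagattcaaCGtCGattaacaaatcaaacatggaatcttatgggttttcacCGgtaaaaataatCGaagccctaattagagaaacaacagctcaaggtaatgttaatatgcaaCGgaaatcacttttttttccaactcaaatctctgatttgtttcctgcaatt

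Of the other genes that gained CG methylation, ADF8 and AT1G25211 had less of it in wt. ADF8, an actin depolymerizing factor, went from 11.3% of 406 calls to 28.3% of 339 calls (16.7 points higher, Fisher's exact adjusted p = 1.07e-05), and had 0% of 237 calls in wt control and 0.235% of 425 calls in wt heat. The F-box gene AT1G25211 went from 56.5% to 78.8%, with 16.2% and 9.68% in wt. At both, poliv control stood above wt and the poliv heat column higher still. AT4G15056 went from 75.0% to 91.0%, with 66.1% and 68.8% in wt, and did not pass the test against wt (adjusted p = 0.208, binomial Wald test).

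Genes also lost CG methylation. AT5G28730, annotated as a nuclease, went from 90.6% of 448 calls to 70.6% of 340 calls (-20.31 points, Fisher's exact adjusted p = 1.45e-09), against 89.9% and 87.1% in wt. AT4G10740, an F-box gene at chr4:6617143-6618426, went from 31.8% of 781 calls to 14.5% of 678 calls (-17.57 points, Fisher's exact adjusted p = 1.07e-11). In wt AT4G10740 was lower too, at 18.4% and 11.6%. The noncoding locus AT4G05815, chr4:6619461-6619844, lies just beyond it and moved the other way, from 31.8% of 557 calls to 63.7% of 477 calls (31.7 points higher, Fisher's exact adjusted p = 1.02e-20). It was singled out after its value was seen. In wt AT4G05815 read 53.4% and 53.1%. AT4G21366, of the protein kinase superfamily, went from 29.4% to 7.69%, and AT5G39640, a putative endonuclease or glycosyl hydrolase, from 90.3% to 70.9%. The former did not pass the test against wt (adjusted p = 0.14, binomial Wald test), and the latter had under 50 calls in a wt column. The call at AT5G39640 (Fisher's exact adjusted p = 0.0481) was lost with a coverage minimum of 20 (Fisher's exact adjusted p = 0.0536), with the larger size threshold and with the binomial Wald statistic divided by its dispersion (adjusted p = 0.216). That at AT4G21366 (Fisher's exact adjusted p = 0.0101) was lost with the dispersion (adjusted p = 0.0528, binomial Wald test).

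The CHG calls on genes were 3 higher and 2 lower. AT4G00580, a COP1-interacting protein-like gene at chr4:247927-250406, lost nearly all of its CHG methylation, from 134 of 1244 calls (10.8%) to 5 of 1046 calls (0.478%), with Fisher's exact adjusted p = 1.3e-26. Its CG level went from 39.9% to 29.4% (-10.85 points, Fisher's exact adjusted p = 0.000204) and its CHH level from 0.934% to 0.564% before subtraction. In wt it held 21.2% and 24.8% in CHG, so here the heat column moved away from wt. AT5G56070, an uncharacterized protein gene, went from 42 of 178 calls to 47.9% in CHG while in wt it read 53.3% and 32.9%. AT1G10250, which encodes a Sin3-like protein, went from 8.23% to 25.2%.

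Among the genes with the largest CHH differences, RPL12-A (AT3G27830), which encodes the plastid ribosomal protein L12-A, had the most calls. It went from 32 of 2299 calls (1.39%) to 186 of 1756 calls (10.6%), 8.90 points higher (Fisher's exact adjusted p = 5e-31), while wt went from 6.90% to 3.75%. AT5G26080, a proline-rich protein gene, went from 19.4% to 6.23% and did not pass the test against wt, which went from 15.0% to 5.29%. AT2G22510, a hydroxyproline-rich glycoprotein gene, went from 32.1% to 19.8%, a smaller fall than in wt, where it went from 47.0% to 16.9%. AT2G29654 went from 63 of 582 calls (10.8%) to 0 of 567 calls, which allows a level of up to 0.529%, and fell in wt too, from 5.91% to 1.09%. AT5G15745 went from 0 of 194 calls, which allows up to 1.55%, to 15 of 129 calls (11.6%). Gains at AT2G14270 and at the retrotransposon-derived AT3G44261 were 9.42 and 9.05 points, and AT1G43825 fell by 16.66 points. In CG RPL12-A had 2 of 901 calls methylated in control and 4 of 667 in heat. AT2G22510 had 0 of 122 and 0 of 104 in CG. AT2G29654 had 0 of 80 and 0 of 90, and AT5G15745 1 of 121 and 1 of 93. The CG levels of AT5G26080, AT2G14270, AT3G44261 and AT1G43825 ranged from 35.2% to 98.2%. Whether CHH calls at genes with so little CG methylation are unconverted cytosines was not tested.

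Of the microRNA genes, 4 of 113 tested were called in CG (3.54%, where 0.297% of all loci were), 0 of 117 in CHG and 3 of 292 in CHH (1.03%, where 0.846% were). Beside the MIR5642 pair, MIR851 went from 10.2% of 255 calls to 0.435% of 230 calls in CG (-10.03 points, Fisher's exact adjusted p = 0.000201), with 0% and 0.398% in wt. MIR447b went from 7.81% of 128 calls to 26.1% of 111 calls, with 0% and 1.18% in wt. MIR5635c gained CHH methylation, from 1.02% of 98 calls to 27.5% of 51 calls, and MIR8121 lost it, from 22.4% of 85 calls to 2.86% of 70 calls. MIR8169 went from 0% of 134 calls, which allows up to 2.24%, to 9.78% of 92 calls. These genes were grouped after their values were seen.

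The TEs with the largest CG differences had at most 150 calls in each column. AT3TE77420 went from 76.8% of 112 calls to 23.8% of 126 calls, AT5TE01410 from 88.4% to 50.9% and AT2TE22785 from 57.9% to 22.2%. AT3TE94585 went from 39.4% to 6.56% in CG and from 19.7% to 2.02% in CHG, both called, while in wt it was under 5% in both contexts and columns. Gains in CG were led by AT5TE44160, from 55.7% of 61 calls to 98.0% of 51 calls, followed by AT5TE71510 with 30.3 points, AT2TE06200 with 26.7 and AT1TE30840 with 26.3 points. The 4 TEs called in CHG were AT3TE94585, AT2TE14250 (21.2% to 6.01%), AT5TE43785 (59.1% of 860 calls to 48.9% of 744 calls) and AT2TE18240 (48.0% to 67.1%).

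In CHH single TEs went from a high level to none, or rose to a high level from a lower one. AT1TE22110 went from 117 of 173 calls (67.6%) to 0 of 149 calls, which allows up to 2.01%, and AT3TE50735 from 43 of 68 calls to 0 of 52 calls, which allows up to 5.77%. In wt AT1TE22110 went from 50.4% to 34.6% and AT3TE50735 from 49.4% to 22.6%. AT5TE60215 went from 53 of 97 calls (54.6%) to 0 of 177 calls, which allows up to 1.69%, while wt went from 26.2% to 59.3%. The poliv difference of AT5TE60215 lay 87.7 points below that of wt (adjusted p = 5.45e-32, binomial Wald test). In the other direction AT3TE23210 went from 12.4% of 282 calls to 60.9% of 174 calls, AT1TE49660 from 2 of 50 calls to 57.1%, AT4TE11300 from 14.9% to 61.3% and AT1TE54425 from 40.5% to 83.6%. In CHG AT3TE23210 had 2 of 74 calls methylated in control and 0 of 68 in heat. Calls at such a TE come from few reads, and calls on the same read are not independent.

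Of all measured loci 0.205% were called in wt in CG, 0.0235% in CHG and 1.85% in CHH. Of the loci called in poliv, in CG 4 of 114 measured in both genotypes were called in wt, all 4 in the same direction, in CHG 0 of 12 were (48 CHG loci of wt passed the adjusted p without the size threshold and 1659 an unadjusted p of 0.05), and in CHH 130 of 443, of which 69 had the same direction. The difference of the 2 heat effects was called at 46, 6 and 226 of these loci. They were selected by the poliv difference, which also enters this test, so these counts do not show changes particular to poliv. Over all loci the difference of the 2 heat effects was called at 68 above wt and 113 below in CG, 0.468% of 38661. In CHG it was called at 10 above and 4 below, 0.0368% of 37995. In CHH it was called at 560 above and 586 below, 2.14% of 53543.

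Over whole classes the differences were small. Body-methylated genes, with CG but no CHG or CHH methylation in wt, were 0.17 points higher in CG (SD 2.51 over 9427 genes), and 13336 unmethylated genes were 0.02 points higher. TEs were 0.24 points higher in CG (SD 4.73 over 8685 TEs), 0.24 points lower in CHG and 0.15 points higher in CHH. The positive TE means in CG and CHH were carried by TEs with few calls, whereas the negative CHG mean came from TEs with 200 calls or more. In CHH the mean difference was 0.33 points higher for 4820 TEs with 50 to 100 calls in the shallower column and 0.39 points lower for 1358 TEs with 5000 or more, of which 75.9% were lower. In CHG it went from 0.26 points higher to 1.5 points lower, and in CG from 0.32 points higher to 0.40 points lower.

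**Figure D4:**
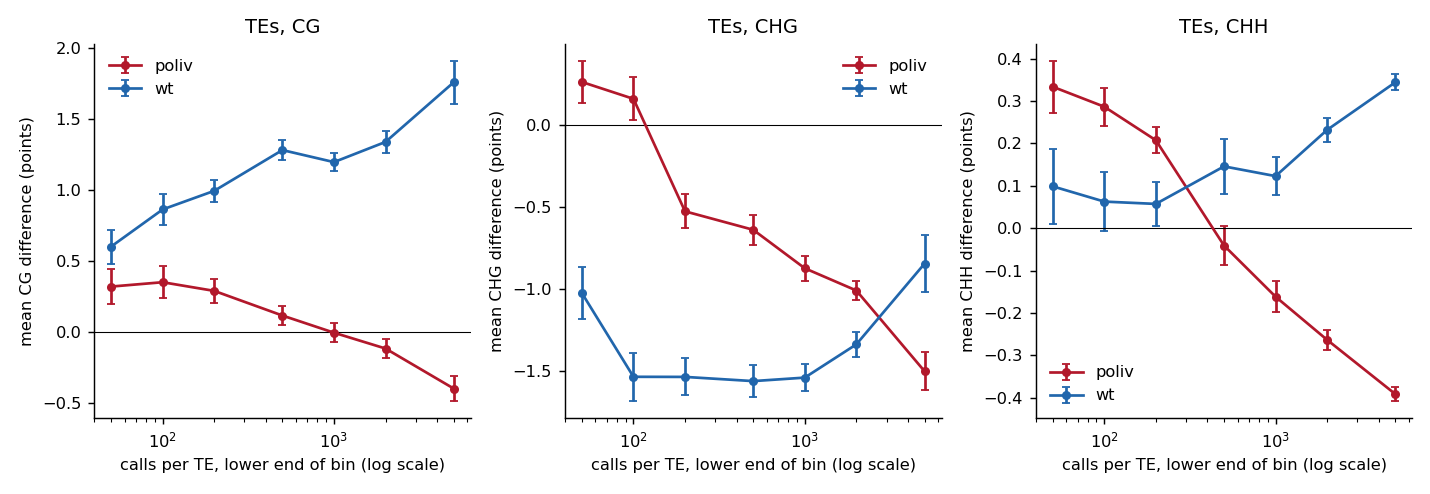
Mean heat minus control difference in percentage points, after the chloroplast level was subtracted, of TEs grouped by the calls of the shallower column (log scale, lower end of each bin), for poliv and wt in CG, CHG and CHH. Bars are standard errors over TEs, which are not replicates. In poliv the deepest bin is lower than the shallowest in all 3 contexts, at -0.39 against 0.33 in CHH. In wt it is higher in all 3, at 1.76 against 0.60 in CG, -0.84 against -1.02 in CHG and 0.34 against 0.10 in CHH.

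The TEs with at least 1000 calls in all 4 columns of poliv and wt give the closest comparison of the genotypes. In CHH 3580 TEs averaged 5.31% in poliv control and 5.32% in poliv heat, a difference of -0.29 points after the chloroplast level was subtracted (SD 0.87), and 5.08% and 5.63% in wt, 0.24 points higher (SD 1.10). In poliv 66.0% of them were lower and in wt 36.9%. Without subtraction the poliv difference was 0.01 points, so its sign rests on the subtraction, but the gap between the genotypes does not, at -0.53 points with subtraction and -0.54 without. At an adjusted p of 0.05 with no size threshold 212 of these TEs were lower and 38 higher in poliv, where 2.33% of all CHH loci passed. The share is not at equal depth, since all tested TEs had a median of 212 CHH calls and with more calls smaller differences pass. The same holds for the shares given against wt and in CG and CHG. Against wt 425 lay below and 56 above, where 6.03% of all CHH loci passed. With the Wald statistic divided by its dispersion 76 lay below and 12 above, and the share of all CHH loci passing that version was not computed.

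In CG 951 such TEs averaged 79.6% and 79.8% in poliv, -0.08 points after subtraction (SD 1.46), and 79.5% and 81.1% in wt, 1.27 points higher (SD 1.44). Against wt 90 lay below and 2 above, with 1.76% of all CG loci passing that test, and 29 and 0 with dispersion. The share of all CG loci passing with dispersion was not computed either. In poliv alone 12 were higher and 15 lower, where 1.72% of all CG loci passed. In CHG the genotypes moved together, with 1217 TEs 0.99 points lower in poliv (SD 1.79) and 1.44 points lower in wt (SD 2.01). Here 1 TE lay above and 2 below wt, where 0.0684% of all CHG loci passed, and in poliv 1 was higher and 7 lower, where 0.154% passed.

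The CHH difference of poliv was larger where wt has more CHH methylation. Deep TEs with under 2% CHH in wt control had a mean difference of 0.04 points (422 TEs), those with 2 to 5% -0.22 points (1386 TEs), and those with 5 to 10% -0.41 points (1644 TEs, of which 141 were lower and 19 higher at an adjusted p of 0.05). For 117 TEs with 10 to 20% it was -0.51 points. In these groups poliv control read 0.626%, 4.32%, 6.84% and 9.96%, where wt control read 0.678%, 3.87%, 6.53% and 11.85%.

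Runs were counted as 3 or more consecutive measured loci of one kind with the same direction and each with an unadjusted p at or below 0.05, which 11.1% of CG, 4.11% of CHG and 9.55% of CHH loci had. TEs formed 25 runs in CHH, of which 19 were lower, 5 in CG and 3 in CHG. Genes formed 22 runs in CG, 11 in each direction, of which 5 touch the mitochondria-like stretch and 1 is the rDNA copy, and 9 in CHG, of which 4 touch that stretch and 1, AT2G01008 to AT2G01010, lies in the chromosome 2 match of the rDNA. With overlapping genes left out that CHG run was absent, and a lower CHG run of 4 loci appeared in the rDNA copy of chromosome 3. In CHH 10 of 14 gene runs were lower. The chloroplast shift subtracted in CHH, 0.299 points, was larger than the rise of unmethylated genes, 0.248 points. How many of these runs rest on that gap was not tested. In wt TEs formed 45 runs in CG, of which 44 were higher.

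The longest TE run in CHH, of 5 TEs, went from AT5TE42330 to AT5TE42355 and included 2 called TEs. AT5TE42350 went from 52 of 224 calls (23.2%) to 3 of 136 calls (2.21%) in CHH (-21.31 points, Fisher's exact adjusted p = 1.43e-06), while wt went from 14.9% to 48.2%. Its CG level moved the other way, from 85.3% to 98.1%, also called. AT5TE42345 beside it went from 12.5% to 4.16%, and AT5TE42330, with 21280 and 19536 calls, from 7.65% to 6.38%. A run of equal length, AT3TE53600 to AT3TE53630, was lower by 0.76 to 2.52 points, and 4 TEs from AT3TE59170 to AT3TE59185 were lower by 1.06 to 1.75 points. In wt AT3TE59170 was 0.83 points higher, where poliv went from 7.41% of 23604 calls to 5.96% of 20343 calls.

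The TE runs in CG had 3 loci each. AT5TE40315 to AT5TE40330 were higher by 2.94 to 3.30 points and AT2TE61710 to AT2TE62740 by 14.98 to 24.65 points. The CHG run AT5TE55130 to AT5TE55145 was higher by 5.71 to 15.37 points and AT4TE18670 to AT4TE18680 lower by 4.34 to 20.97. On genes, 6 neighbours from AT1G71520 to AT1G71691 were lower in CHH by 0.27 to 1.40 points, led by AT1G71690, which went from 1.54% of 3306 calls to 0.444% of 2927 calls. Before subtraction its member AT1G71530 read 0.519% and 0.547%. Without matching, genes formed 1169 CHH runs instead of 14. From AT1G47690 to AT1G47700, 3 neighbours were higher by 3.08 to 7.42 points. Beyond such runs neighbours had little in common. Pearson's r between the differences of next neighbours was 0.008 in CG, 0.027 in CHG and 0.032 in CHH over 8680, 7890 and 22254 pairs of TEs, which share libraries and, in part, reads.

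Contexts were coupled weakly over all loci and more strongly where calls were many. Between CG and CHG differences r was 0.19 over 37973 loci, between CG and CHH 0.06 over 40355, and between CHG and CHH 0.15 over 39487. Over TEs with at least 1000 calls in both contexts r was 0.33 (1082 TEs), 0.16 (1218) and 0.29 (1448), against 0.23, 0.10 and 0.17 in wt and 0.47, 0.38 and 0.63 in ddm1. These points share their libraries and often their reads, so r is a description. Loci called in CG mostly moved the same way in CHG, in 84 of 106 (79.2%), with a median CHG difference of 2.20 points for the higher ones and -3.95 for the lower. In CHH 75 of 120 had the same sign. Loci called in CHH shared their sign with CG in 54.0% of 189 and with CHG in 95 of 152. Over all loci the share with equal signs was 53.8% for CG and CHG, 52.3% for CG and CHH and 55.7% for CHG and CHH.

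**Figure D5:**
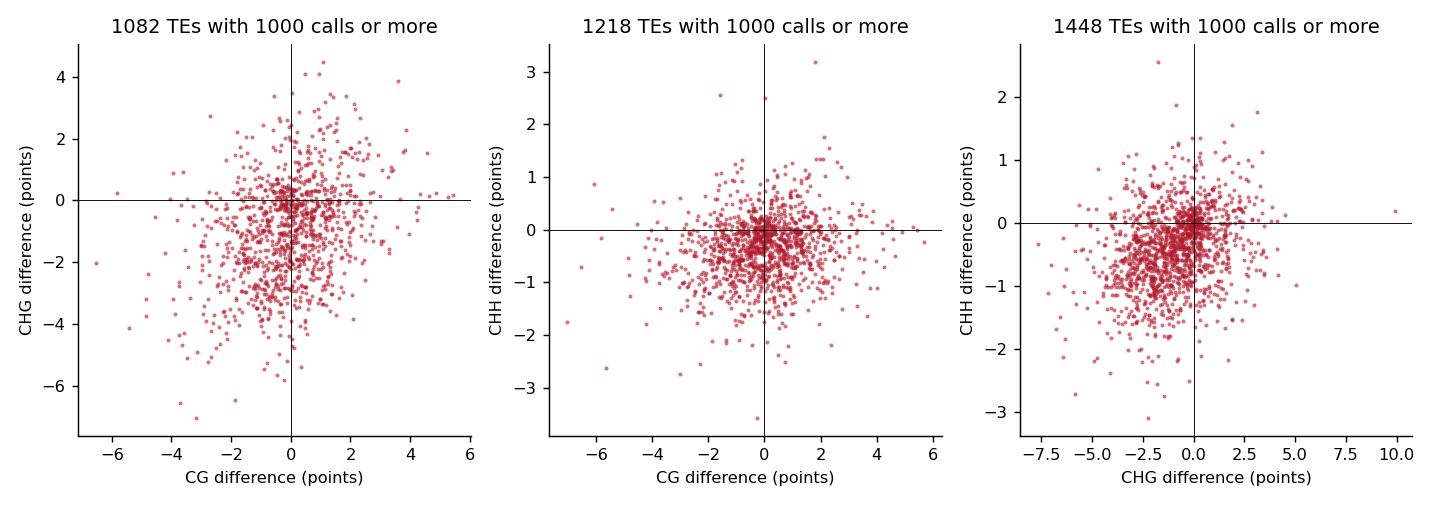
Heat minus control difference in percentage points in one context against another for TEs with at least 1000 calls in both contexts, one point per TE of poliv, for CG and CHG (1082 TEs), CG and CHH (1218) and CHG and CHH (1448). The clouds lean to the upper right in each pair, with r of 0.33, 0.16 and 0.29, and in the CHG and CHH pair 67.8% of the points have the same sign on both axes.

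In all 7 loci were called in 2 contexts. Those called in CG and CHG (AT5G26970, AT4G00580, AT2G07674, AT3TE94585 and AT2TE14250) had the same direction in both. AT5TE52390 gained in CG, from 58.7% to 78.7%, and in CHH, from 11.02% to 16.9%, where wt held 92.4% and 24.6% in control. AT5TE42350 alone had opposite directions.

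The lists of genes that run methylation and heat response held no called member. None of 13 methyltransferase and maintenance genes, 20 genes of RNA-directed DNA methylation, 5 of demethylation, 32 of heat response, 22 of meristem and floral identity, 8 silenced marker loci and 11 measured markers of stem and other cell types passed both thresholds, as 0.138% of all protein-coding genes did in CG, 0.0187% in CHG and 0.111% in CHH. Their median CG differences lay between -0.43 points, for the methyltransferase and maintenance genes, and 1.27 points, for the demethylation genes, where all genes had -0.01. Smaller differences passed the adjusted p alone. ROS1 (AT2G36490), the DNA demethylase, went from 21.0% of 3707 calls to 25.1% of 3434 calls in CG (3.82 points higher, Fisher's exact adjusted p = 0.0142). FGT1 (AT1G79350), needed for heat memory in Arabidopsis, went from 32.2% of 4690 calls to 29.0% of 4261 calls (-3.50 points, Fisher's exact adjusted p = 0.0349), and wt was 1.47 points higher. HSFA3, a heat shock factor, read 2.06% and 1.49% in CHH (Fisher's exact adjusted p = 0.0158). CLV3, the stem cell peptide, read 29.4% of 310 calls and 35.9% of 195 calls in CG, with an interval of the difference from -2.03 to 14.7 points (Fisher's exact adjusted p = 0.766). In wt it read 3.06% and 3.30%. NRPD1, the gene mutated in poliv, held 69.1% and 70.7%.

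ONSEN, a heat-activated retrotransposon family, was lower in CG at 5 of 6 measured copies, with a median of -7.57 points where all TEs had 0.09. Copies of a family can share reads, and how such reads were placed is not given, so the copies may not be independent observations. One of the 6, AT5TE15240, was called, as were 0.668% of all TEs in CG, and went from 86.7% of 248 calls to 70.8% of 281 calls (-16.1 points, Fisher's exact adjusted p = 0.00296), while wt read 88.0% and 89.6%. AT1TE59755 went from 88.2% of 969 calls to 79.6% of 853 calls (-8.90 points, Fisher's exact adjusted p = 0.000276). AT3TE92525 read 88.7% of 53 calls and 65.8% of 79 calls and did not pass (Fisher's exact adjusted p = 0.128), nor did AT3TE89830 with 86.6% and 80.6% (adjusted p = 0.465). In wt 4 of 5 measured copies were higher, with a median of 2.13 points. In CHG and CHH no copy was called, and AT1TE24850 was 1.06 points higher in CHH (Fisher's exact adjusted p = 0.00135).

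Among the study's own lists, which were drawn up on its expression data, 54 heat-induced TEs, of which 40 were measured in CG, held 1 called member, that ONSEN copy, and their median CHG difference was -1.25 points. The 65 TEs with a heat-factor site had a median of -1.03 in CHG and -0.44 in CHH, where all TEs had -0.28 and -0.01. In wt the TEs with a heat-factor site had medians of -1.95 and 0.14, where all TEs had -0.81 and 0.14. The lists were not matched to other TEs by calls. Over TEs with at least 1000 calls the medians in CHG and CHH were -0.87 and -0.23 in poliv and -1.41 and 0.22 in wt. The heat-induced TEs had a median of -0.89 in CHG in wt, so the lower CHG medians were not particular to poliv. Of 107 nuclear genes that the study lists as changed in poliv inflorescences at this age, 103 were measured in CG and 2 were called lower, where 0.138% of all protein-coding genes were called, AT2G07774 in the mitochondria-like stretch and AT3G41762 in the rDNA copy. The 4 nuclear genes it lists for poliv stem cells at this age held no call, and organelle genes were left out of both lists.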

How the data were processed

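Bisulfite libraries of sorted stem cell nuclei (Pico Methyl-Seq, single-end NovaSeq reads) were processed by the authors. Their processing notes name Trim Galore 0.6.2, Bismark 0.22.2, bedtools 2.27 and TAIR10, and their methods methylpy for calling cytosines. The deposited table holds counts of methylated calls and of all calls (coverage) per gene or TE, context and group, in 1 set of columns for the 2 libraries of a group. The ways in which calls were assigned to loci and libraries were combined are not given in the sources used here. Of its columns 36 with counts were used and 18 with deposited levels were not, and 2 of 69873 rows name no locus and were left out.

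Levels were methylated calls over coverage, less the level of all chloroplast identifiers of the column. For the test, unmethylated calls of the column with the lower chloroplast level were moved to methylated by their expected number. Loci with a coverage of at least 50 in both columns entered a two-sided Fisher's exact test with Benjamini-Hochberg adjustment over all nuclear loci of a context. Poliv was set against wt with a two-sided binomial Wald test of the difference of the differences. Levels have 95% Wilson intervals, the floor of a 0 is 3 counts, and calls on a read are not independent. Gene names and coordinates came from RefSeq TAIR10.1 by identifier (37898 of 38386 nuclear gene loci matched), and TEs were ordered by identifier and genes by start. Repeats were located with minimap2 2.31 and blastn 2.17.0. Python 3.11.15 with numpy 2.4.6, pandas 2.3.3, scipy 1.17.1, statsmodels 0.14.6 and matplotlib 3.10.9 was used, and the test was tested on simulated data. Those data had independent calls, so they do not show how often unchanged loci are called where calls share a read.

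Named loci are, per context and direction, the 4 called TEs and 4 called protein-coding genes with the largest difference, the 3 longest runs, up to 6 loci (the text gives all 7) called in more than 1 context, and called members of the lists or up to 2 with the largest difference. The loci, lists and alternatives were chosen with earlier results of these data known. Further loci in the rDNA copy and mitochondria-like stretch, the microRNA genes, AT4G05815, runs beyond the 3 longest, further list members and the grouping of TEs by calls were chosen after values were seen. Alternatives were the coverage minimum, the size threshold, the subtraction, weighting by coverage, the test, the run length and overlapping genes.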

Additional observations from a re-analysis of the deposited data

Results flagged for a closer look

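The heat difference of poliv differed from that of wt (binomial Wald test, adjusted over all loci of the context) at 32 named or rDNA results, given here as poliv minus wt in percentage points. These loci were selected by their poliv difference, which also enters the test, so the selection itself favoured passing it. In CG, the rDNA copy of chromosome 3 gave -39.4 at AT3G06345 (MIR5642a, binomial Wald adjusted p = 2.46e-10), -21.2 at AT3G41979 (0.0211), -19.5 at AT3G06325 (0.000143), -13.3 at AT3G41762 (1.49e-24), -9.77 at AT3G06355 (4.06e-10), -9.46 at AT3G41761 (8.99e-07) and -8.67 at AT3G06365 (2.31e-18), which was also lower in CHH by -0.63 (0.0454). All of these have near-identical copies elsewhere in the genome.

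Other genes that differed in CG were AT5G26970 with 34.5 points (binomial Wald adjusted p = 4.16e-09), AT1G25211 with 28.9 (0.0031), AT4G00680 (ADF8) with 16.8 (3.21e-05), AT5G28730 with -17.1 (0.00226) and AT4G10740 with -10.4 (0.039). TEs that differed in CG were AT5TE44160 with 39.8 points (binomial Wald adjusted p = 0.0363), AT1TE30840 with 35.6 (0.0121), AT2TE06200 with 25.8 (0.00194), AT2TE22785 with -39.4 (0.0125) and AT3TE94585 with -30.0 (0.000391).

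In CHG the differences were 44.7 points at AT5G56070 (binomial Wald adjusted p = 0.000283), 30.1 at AT5G26970 (0.00214), 16.2 at AT1G10250 (0.0315), -13.8 at AT4G00580 (1.07e-05) and -17.3 at AT3TE94585 (0.000178). In CHH they were 17.9 points at AT2G22510 (binomial Wald adjusted p = 4.35e-06), 15.2 at AT3G44261 (3.25e-05), 12.4 at AT3G27830 (RPL12-A, 5.05e-25), 10.7 at AT5G15745 (0.0321), 10.3 at AT2G14270 (0.0424), -5.99 at AT2G29654 (0.0267), -36.4 at AT3TE50735 (0.00249), -51.8 at AT1TE22110 (1.44e-12) and -87.7 at AT5TE60215 (5.45e-32). Each compares 4 pooled columns, and the 3 TE values in CHH come from columns of 52 to 282 calls.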

How the results depend on the processing

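No paired analysis was possible because the table holds 1 pooled set of columns per group, and for the same reason no library could be left out. Calls in CG, CHG and CHH were 120, 12 and 471, and became 30, 3 and 244 with the size threshold doubled to 20 points (10 in CHH) and 696, 61 and 1297 without one. These counts come from Fisher's exact test, and a Wald test gave 158, 18 and 489. Dividing its statistic by its dispersion gave 63, 18 and 289, and took differences from wt from 181 to 32 in CG and from 1146 to 314 in CHH. Without the mitochondria-like and rDNA loci, an alternative added after seeing the data, 100 CG calls were left. Of 41 named results none changed direction under the alternatives in coverage minimum, size, test and matching (12 could not be measured with a minimum of 100), and calls were lost at 14 with the larger size, 5 with dispersion and 1 with a coverage minimum of 20.

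Class means moved with the subtraction and with weighting by coverage. In CG, TEs gave 0.24 points, 0.00399 weighted by coverage, 0.51 unsubtracted and 0.44 with a coverage minimum of 20, genes 0.08 and 0.34 unsubtracted, and TEs with at least 1000 calls -0.06, -0.15 weighted and 0.20 unsubtracted. In CHG, TEs gave -0.24, -0.84 weighted, 0.0387 unsubtracted, -0.46 with a minimum of 100 and 0.0153 with 20, genes -0.0114, -0.0332 weighted, 0.27 unsubtracted and 0.0249 with the level of unmethylated genes subtracted (added after seeing the data), and deep TEs -0.96, -1.05 weighted and -0.69 unsubtracted. In CHH, TEs gave 0.15, -0.25 weighted, 0.45 unsubtracted, 0.20 with unmethylated genes, 0.10 with a minimum of 100 and 0.19 with 20, genes -0.0306, -0.0453 weighted, 0.27 unsubtracted and 0.0202 with unmethylated genes, and deep TEs -0.275, -0.35 weighted, 0.0246 unsubtracted and -0.22 with unmethylated genes.

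Runs of at least 4 loci numbered 4, 4 and 2 on genes against 22, 9 and 14 of at least 3, and 0, 0 and 3 on TEs against 5, 3 and 25. On calls not matched in background genes formed 46, 51 and 1169 runs. With a minimum of 100 calls TEs formed 3 runs in CG, and without the mitochondria-like and rDNA loci genes formed 4 in CHG. Coupling of CG and CHG was 0.27 over loci of at least 5% and its share of equal signs, 53.8%, became 58.2%, 54.3% with a minimum of 20 and 57.0% unsubtracted. For CG and CHH r became 0.10 and the share 54.0%, or 58.3% unsubtracted, against 52.3%, and for CHG and CHH r became 0.20, or 0.16 with a minimum of 100, and the share 61.0%, or 68.1% unsubtracted, against 55.7%. For these changes the cause was not tested beyond what each alternative does by construction. Some single TEs had few calls, and AT3TE92525, with 53 and 79 calls, did not pass at -23.12 points in CG.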
